A study of Mus musculus with 12 samples.

Results

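Serpins are a superfamily of proteins named for serine protease inhibition. An inhibitory serpin offers an exposed loop to a protease, and cutting of that loop traps the enzyme in an inactive complex. Hepatocytes secrete many serpins into plasma, where they restrain clotting, fibrinolysis and neutrophil proteases, and several family members have lost inhibition and carry hormones instead. The 8 genes described here were Serpina3c, Serpina3k and Serpina3n, which belong to the mouse cluster related to human alpha-1-antichymotrypsin; Serpina5, protein C inhibitor; Serpina7, thyroxine-binding globulin; Serpina10, the protein Z-dependent inhibitor of coagulation factor X; Serpina12, vaspin; and Serpinf2, alpha-2-antiplasmin. They were taken from a list of names matched to the gene name of the non-control spots, and 11 probes carried those names, out of 41174 probes on the array. Each of the 8 genes and 11 probes passed the filter on dim signal, among 19343 genes tested. Both Serpina5 probes passed it only through the groups given dexamethasone.

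The study compared how the livers of female and male mice respond to a glucocorticoid. All animals were adrenalectomized C57BL/6 mice of 11 weeks, so that their main source of endogenous glucocorticoid was absent, and all females were in diestrous 1. There were 4 groups of 3 animals: females given dexamethasone, females given vehicle, males given dexamethasone, and males given vehicle. Dexamethasone, a synthetic glucocorticoid, was injected intraperitoneally at 1 mg/kg, the vehicle was phosphate buffered saline, and livers were taken after 6 h. Each RNA was labelled with Cy3 and hybridized alone to an Agilent mouse array, with 4 arrays on each of 3 slides.

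Serpin paralogs can be alike enough for a probe to bind a neighbour's transcript, so the probe letters are shown for the genes on which the results turn. Serpina5 was read by a probe whose design position, chr12:101598175-101599524 on the plus strand of mm7, spans 1350 bases for 60 letters, and by a second at chr12:101600286-101600345 on the same strand, of which the first 30 letters are given. Serpina3c was read at chr12:101641464-101641523 on the minus strand and Serpina3k at chr12:101839757-101839816 on the plus strand, both on mm7. For those 2 probes the 30 letters around their longest common run are given, with the 9 common letters in capitals.
Serpina5 spanning probe: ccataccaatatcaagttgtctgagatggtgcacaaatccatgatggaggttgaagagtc
Serpina5 brighter probe: gtagcatacttgagtaatcagggtcaaagt
Serpina3c probe: accctatatgTGGATCTCTgtttacatcct
Serpina3k brighter probe: ggacagagtctgcataTGGATCTCTatata
Over all 11 probes, the longest run of letters shared with a probe of any other serpin on the array was between 7 and 11 of 60. Probes were compared only with probes, which cannot show whether a probe binds another serpin's transcript. Cross-hybridization to transcripts was not tested. Exon and intron annotation on mm7 was not used here.

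The sequence before the annotated start was matched for 6 of the 8 genes, in 7 entries because Serpina7 has 2 starts (RefSeq, GRCm38.p6). Serpina3k and Serpina10 had no entry and were not searched for any motif. The hexamer TGTTCT on either strand, the core of 1 arm of the glucocorticoid receptor's DNA element, was found within the 250 bases before the start of Serpina5, Serpina3c and Serpina3n, once each, against 16.1% of 32851 promoter entries of that length. The stretches that hold it are shown 5′ to 3′ on the gene's strand, with the hexamer (here as AGAACA) in capitals, at chr12:104100863-104100982 (plus) for Serpina5, chr12:104153987-104154112 (minus) for Serpina3c and chr12:104406465-104406590 (plus) for Serpina3n.
Serpina5: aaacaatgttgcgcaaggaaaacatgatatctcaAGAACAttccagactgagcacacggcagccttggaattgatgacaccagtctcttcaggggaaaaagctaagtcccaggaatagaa
Serpina3c: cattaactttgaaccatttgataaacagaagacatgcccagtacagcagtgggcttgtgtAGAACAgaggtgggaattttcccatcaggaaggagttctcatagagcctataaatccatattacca
Serpina3n: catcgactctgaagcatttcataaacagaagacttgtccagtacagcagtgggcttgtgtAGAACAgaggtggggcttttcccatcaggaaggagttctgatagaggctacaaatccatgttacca
The Serpina3c and Serpina3n stretches had the same base at 113 of 126 positions (89.7%). The full palindrome, which is that hexamer preceded by its reverse complement with 3 bases of any kind between them, was in none of the 7 entries and in 0.00913% of all entries. TTGCGCAA, a C/EBP consensus that reads the same on both strands, was in the Serpina5 entry alone and in 0.164% of all entries. TTCNNNGAA, the STAT element, was in none of the 7 entries and in 7.02% of all entries, and TATAAA on the gene strand was in the entry of Serpina3c and in both of Serpina7, beside 7.59% of all entries. These are matches of letters, and binding was not measured here.

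Across the arrays the upper-quartile signal ran between 578 and 1251 intensity units, and 65.7 to 72.2% of non-control spots were well above background. No spot of a member was saturated. Levels below are relative signals, that is, the spot's processed signal divided by the upper quartile of its own array. Differences are fitted log2 differences of that value with a standard error (SE), and the threshold is an adjusted p of 0.05 in limma, adjusted by Benjamini and Hochberg over all genes. Hepatocyte markers gave strong signals in every group. Their summed relative signal was 1981 to 2183 in dexamethasone females and 1476 to 1646 in vehicle females. In males it was 2329 to 2760 after dexamethasone and 1564 to 1727 after vehicle. Of these markers 4 of 8 rose in females and 6 of 8 in males, against 6.79% and 10.4% of all genes. Fitted differences of the hepatocyte markers ran from -0.59 (Ttr) to 1.64 (Tat) in females and from -0.39 (Ttr) to 1.91 (Tat) in males. Tat was also among the genes chosen to check the treatment. Of the B cell markers, 3 of 5 tested fell in each sex, against 6.88% of all genes in females and 12.1% in males. The part of these markers in the serpin differences was not tested, and in whole liver fewer cells of a type and less RNA per cell cannot be told apart.

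Dexamethasone raised 3 of the 8 serpins in females (Serpina3c, Serpina3k and Serpina5) and lowered 1 (Serpina12), and it raised 2 in males (Serpina3c and Serpina5) and lowered 0. Of all genes tested, 6.79% rose and 6.88% fell in females, which makes 13.7% past the threshold, and 10.4% rose and 12.1% fell in males, which makes 22.5%. The 3 dexamethasone females lay wholly to one side of the 3 vehicle females for 6 of the 8 serpins, against 30.9% of all genes, and the males did so for 3 of 8, against 43.5% of all genes. Serpina5 is in each of these counts. It passed the filter only through the dexamethasone groups, which favoured its place in them. The median fitted difference of the 8 serpins was 0.20 in females and 0.53 in males, beside 0.02 and 0.01 over all genes. All vehicle males were at slide position 1 and no dexamethasone male was, so treatment and position cannot be told apart in males, whereas in females positions 3 and 4 held both treatments.

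**Figure D1:**
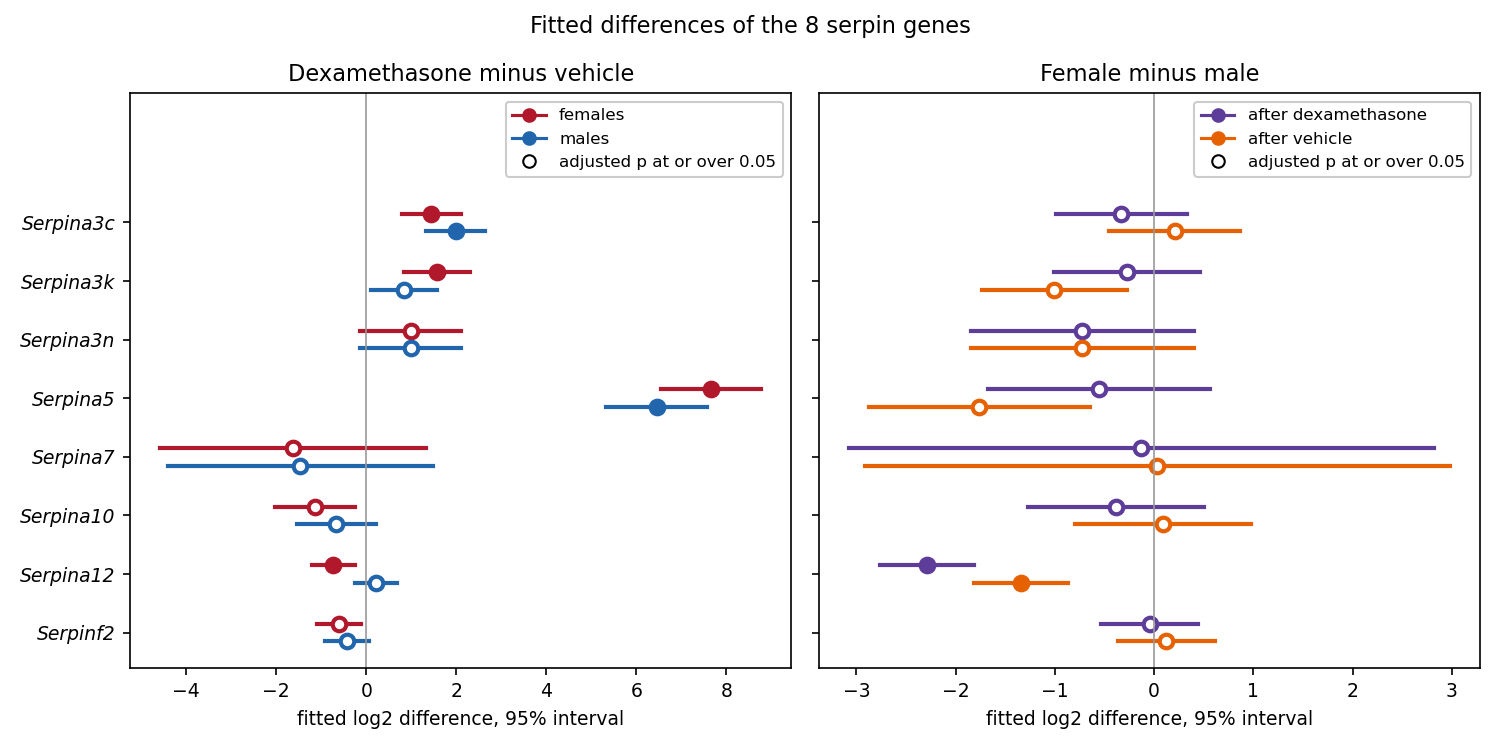
Fitted log2 differences (x axis) of the 8 serpin genes (rows) with 95% intervals, dexamethasone minus vehicle at the left for females and males and female minus male at the right after each treatment; filled points passed an adjusted p of 0.05. Serpina5 lies far to the right of the other genes in both sexes, the intervals of Serpina7 are the widest of the 8, and Serpina12 is the only member with a filled point in the right panel.

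Serpina5 encodes protein C inhibitor, which blocks activated protein C and several other proteases; in adult mice it is known mainly from the reproductive tract. In dexamethasone females its brighter probe read 0.960, 0.686 and 1.18 times the upper quartile, and in vehicle females 0.00568, 0.00614 and 0.00271, where no array was well above background. The increase in females was therefore a bound, at least 80.7-fold with each vehicle female set to its array's lowest spot well above background. The bound was not itself tested. The fitted difference, which used those vehicle values as given, was 7.66 (adjusted p = 5.05e-05 in limma). In dexamethasone males the brighter probe read 1.90, 1.90 and 0.681, against 0.00855, 0.0165 and 0.0260 in vehicle males, of which the last 2 were well above background. The groups did not overlap in either sex, and every dexamethasone animal lay far above every vehicle animal. In males the fitted difference was 6.45 ± 0.50 (SE, n = 3 each; 87.4-fold; adjusted p = 7.99e-05). It includes the value of vehicle male 1, which was not well above background, so its size is uncertain.

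The dimmer Serpina5 probe, the spanning one, gave a separate reading of the gene. It read 0.0831, 0.0617 and 0.105 in dexamethasone females and 0.173, 0.127 and 0.0550 in dexamethasone males, and no vehicle array of either sex was well above background. The bounds were at least 7.14-fold in females and at least 11.1-fold in males, and the bounds themselves were not tested. The fitted differences, which used the vehicle values as given, were 4.91 in females (adjusted p = 0.000101 in limma over all probes) and 5.34 in males (adjusted p = 3.28e-05). Both probes passed the threshold in both sexes, where 13.7% of all probes did so in females and 22.6% in males. The filter kept both probes only through the dexamethasone groups. That favoured this outcome for both probes. The passing of the dimmer probe is not separate support, and the brighter probe's adjusted p values carry the same selection. Within slides, the brighter probe differed by 6.80 and 7.55 log2 units in females and by 7.80 and 6.10 in males. With normexp background correction the fitted difference shrank to 3.94 in females (adjusted p = 0.000488) and 4.00 in males (adjusted p = 0.000629); over all alternatives the highest adjusted p was 0.00129 in females and 0.00191 in males.

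**Figure D2:**
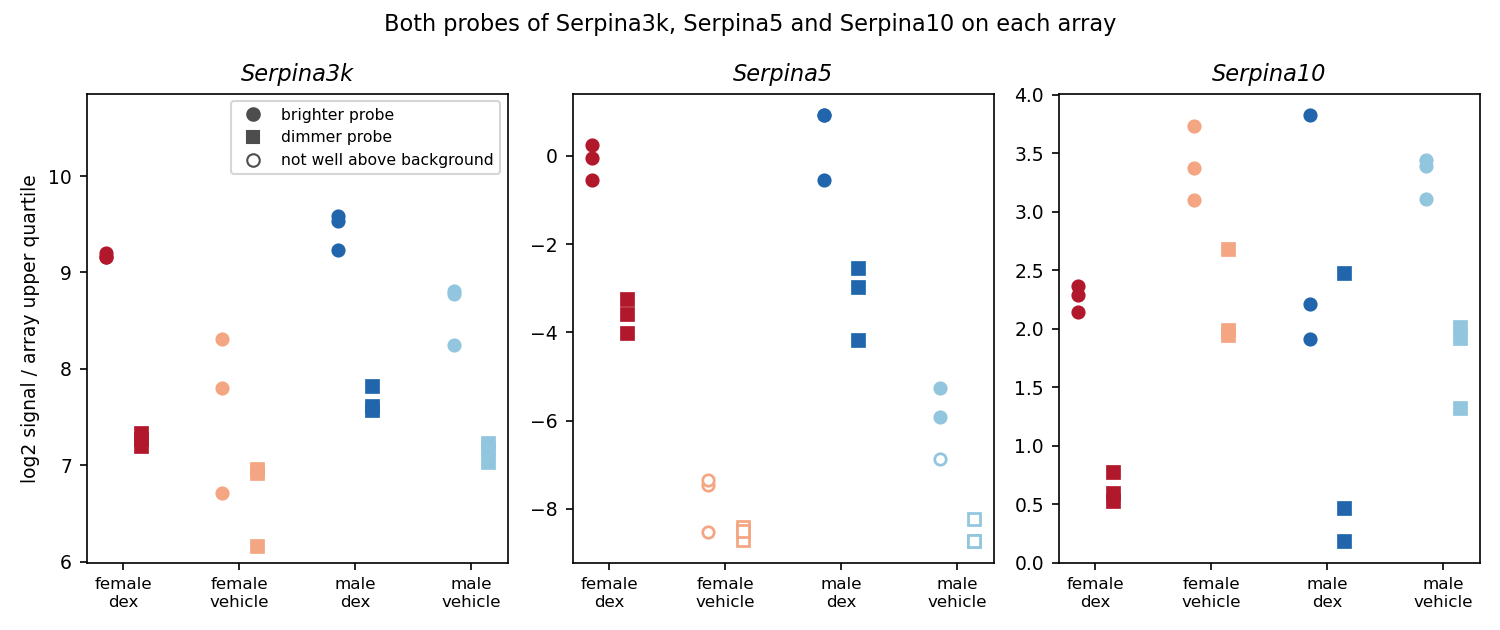
Relative signal (log2, y axis) of the brighter (circles) and dimmer (squares) probe of Serpina3k, Serpina5 and Serpina10 on each array of the 4 groups (x axis, 3 arrays each); open symbols were not well above background. Both Serpina5 probes are filled in all 6 dexamethasone animals, while 2 of the 12 vehicle readings are filled.

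Serpina3c, Serpina3k and Serpina3n sit near each other on chromosome 12 among mouse paralogs of the antichymotrypsin gene, a gene known in humans as an acute phase protein. Serpina3c rose in both sexes. It read 44.6, 30.9 and 56.3 in dexamethasone females, against 15.8, 16.2 and 15.0 in vehicle females, a fitted difference of 1.45 ± 0.30 (SE, n = 3 each; 2.73-fold; adjusted p = 0.011 in limma). It read 44.7, 43.6 and 79.0 in dexamethasone males, against 9.40, 17.0 and 15.6 in vehicle males, a difference of 1.98 ± 0.30 (SE, n = 3 each; 3.95-fold; adjusted p = 0.00149). No vehicle animal of either sex reached the lowest dexamethasone animal, and the 3 vehicle females stood close together. Within slides the difference was 0.93 and 1.67 in females and 2.21 and 1.81 in males. With normexp the female difference was 1.24 and no longer passed (adjusted p = 0.0777).

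Serpina3k, known also as contrapsin, rose in females. Its brighter probe read 573, 574 and 590 in dexamethasone females, against 224, 317 and 105 in vehicle females. The dexamethasone animals differed little from each other, and the vehicle animals spread widely below them. The fitted difference was 1.57 ± 0.33 (SE, n = 3 each; 2.97-fold; adjusted p = 0.0121 in limma). In males it read 602, 769 and 742 after dexamethasone, against 303, 448 and 440 after vehicle; the groups did not overlap, and the difference of 0.84 ± 0.33 did not pass (n = 3 each; adjusted p = 0.0944). The dimmer probe read 147, 161 and 155 in dexamethasone females, against 121, 125 and 71.4 in vehicle females, and 191, 225 and 195 in dexamethasone males, against 144, 131 and 150 in vehicle males. Its groups did not overlap in either sex, with differences of 0.59 in females (adjusted p = 0.0723 in limma over all probes) and 0.52 in males (adjusted p = 0.0796), so the probes gave the same direction and only the brighter one passed, in females. A fit of the female arrays alone gave the same 1.57 with an adjusted p of 0.0632, and normexp gave 1.34 (adjusted p = 0.101). The male difference passed in a fit of the male arrays alone (adjusted p = 0.028) and in fits without female vehicle replicate 2 (adjusted p = 0.0442) or 3 (adjusted p = 0.0142), at the same size.

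Serpina3n, an inhibitor of granzyme B and of neutrophil proteases, passed in neither sex. It read 52.7, 25.7 and 61.4 in dexamethasone females, against 21.2, 15.8 and 31.9 in vehicle females, with overlap between the groups and a fitted difference of 0.99 ± 0.51 (SE, n = 3 each; adjusted p = 0.236 in limma). It read 43.8, 50.3 and 169 in dexamethasone males, against 36.6, 46.2 and 28.4 in vehicle males, again with overlap, and the difference was 0.99 ± 0.51 (adjusted p = 0.195). A single animal, dexamethasone male 3, supplied much of the male difference, which was 0.37 without it (adjusted p = 0.579). The same animal had the highest Serpina3c of all 12, the highest Serpina10 and the lowest Serpina5 of the 6 dexamethasone animals. The summed relative signal of 6 neutrophil markers was 3.87 in that animal, 0.166 and 0.489 in the other dexamethasone males, and 0.946 to 3.07 in vehicle males; the part of those cells in the Serpina3n value was not tested.

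**Figure D3:**
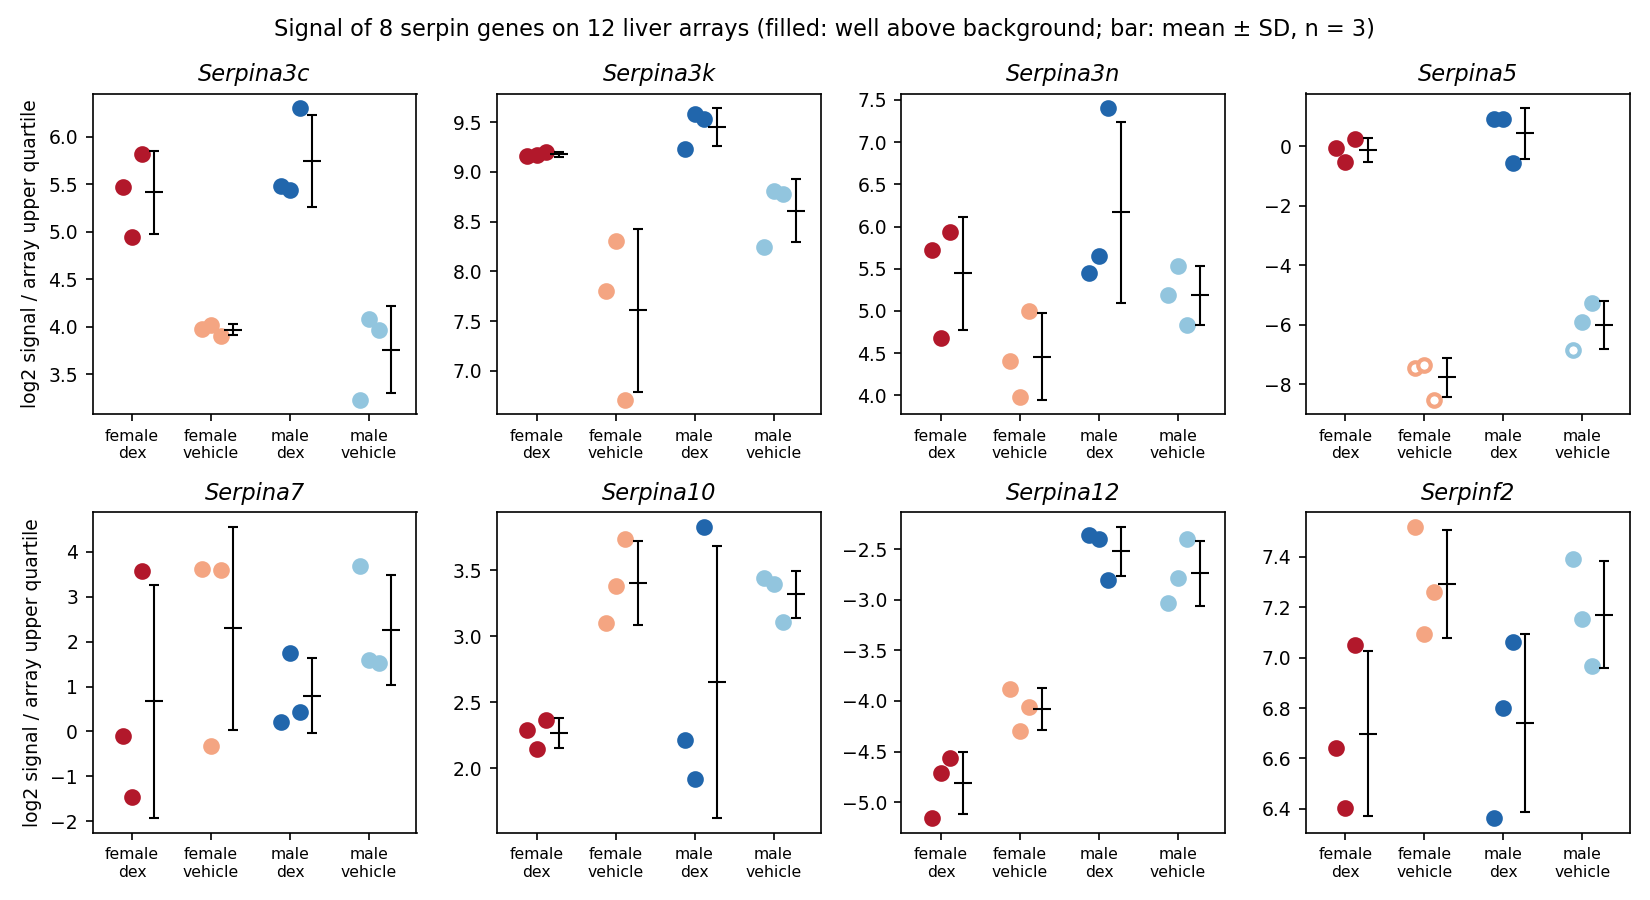
Relative signal (log2, y axis) of the 8 serpin genes on each of the 12 arrays by group (x axis, n = 3 each), with the mean and SD at the right of each group; open circles were not well above background. The 6 dexamethasone animals lie above the 6 vehicle animals for Serpina3c, Serpina3k and Serpina5, females lie below males for Serpina12, and dexamethasone male 3 stands apart for Serpina3n and Serpina10.

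Serpina10, which inhibits activated factor X when bound to protein Z, passed in neither sex taken singly. Its brighter probe read 4.89, 4.42 and 5.14 in dexamethasone females, against 8.58, 10.4 and 13.3 in vehicle females. These groups did not overlap, and the fitted difference was -1.14 ± 0.40 (SE, n = 3 each; adjusted p = 0.086 in limma). It read 4.63, 3.77 and 14.2 in dexamethasone males, against 10.9, 10.5 and 8.64 in vehicle males, with male 3 above all vehicle males and the other 2 below them, and a difference of -0.66 ± 0.40 (adjusted p = 0.27). Without dexamethasone male 3 the difference was -1.25 in males (adjusted p = 0.00377) and, with the smaller shared spread, the unchanged -1.14 in females passed too (adjusted p = 0.0045). Serpina10 passed in 1 of 22 alternative settings in males and in 2 of 22 in females. The dimmer probe, which lies at a separate position on chromosome 12, read 1.71, 1.44 and 1.51 in dexamethasone females, against 3.97, 3.85 and 6.40 in vehicle females (-1.57; adjusted p = 0.0579 over all probes). In males it read 1.13, 1.38 and 5.57 after dexamethasone, against 4.04, 3.79 and 2.49 after vehicle, the same pattern of 2 low animals and 1 high one.

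Serpinf2 encodes the main plasma inhibitor of plasmin, the enzyme that dissolves fibrin. It read 99.8, 84.6 and 133 in dexamethasone females, against 184, 137 and 153 in vehicle females, and the groups did not overlap. The fitted difference was -0.59 ± 0.22 (SE, n = 3 each; adjusted p = 0.104 in limma). It read 82.3, 111 and 134 in dexamethasone males, against 168, 142 and 125 in vehicle males, with overlap and a difference of -0.43 ± 0.22 (adjusted p = 0.196). With quantile normalization the difference was -0.75 in females (adjusted p = 0.0195) and -0.66 in males (adjusted p = 0.0227), both past the threshold. In each sex this was the only 1 of 22 alternative settings in which Serpinf2 passed.

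Serpina7, on chromosome X, is a serpin without protease inhibition that carries thyroxine in plasma. It varied more between animals of a group than between treatments. It read 0.937, 0.362 and 11.9 in dexamethasone females, against 12.3, 0.801 and 12.1 in vehicle females, so that 1 dexamethasone female matched the 2 high vehicle females and 1 vehicle female matched the 2 low dexamethasone females. It read 1.16, 3.38 and 1.34 in dexamethasone males, against 12.8, 3.01 and 2.90 in vehicle males. The fitted differences were -1.63 ± 1.33 in females (SE, n = 3 each; adjusted p = 0.477 in limma) and -1.47 ± 1.33 in males (adjusted p = 0.483). The 95% intervals, -4.57 to 1.32 and -4.41 to 1.48, leave large changes in either direction possible, and no statement on a treatment effect can be made at this spread. In every group all 3 arrays were well above background for this probe.

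Serpina12, known as an adipokine that inhibits kallikrein 7, was dim, with relative signals between 0.0280 and 0.194, yet well above background on all 12 arrays. In females it fell: it read 0.0280, 0.0381 and 0.0422 after dexamethasone, against 0.0678, 0.0507 and 0.0601 after vehicle, without overlap. The difference was -0.73 ± 0.22 (SE, n = 3 each; adjusted p = 0.047 in limma), just inside the threshold. It passed in 8 of 22 alternative settings, and with normexp its sign turned (0.49; adjusted p = 0.549). In males it read 0.194, 0.190 and 0.143 after dexamethasone, against 0.122, 0.145 and 0.189 after vehicle, with overlap and a difference of 0.22 ± 0.22 (adjusted p = 0.524). Of 5 adipocyte markers, Adipoq and Lep did not pass the filter on dim signal and 3 were tested. Of the 3, Cidec and Fabp4 rose in both sexes, against 6.79% of all genes in females and 10.4% in males. The summed relative signal of those 3 was 14.4 to 28.9 in dexamethasone females, 7.46 to 8.11 in vehicle females, 23.5 to 28.5 in dexamethasone males and 8.20 to 10.02 in vehicle males, and its part in the Serpina12 values was not tested.

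Serpina12 was also the member that separated the sexes. After dexamethasone, females read 0.0280 to 0.0422 and males 0.143 to 0.194, a difference of -2.29 ± 0.22 (SE, n = 3 each; 4.89-fold lower in females; adjusted p = 0.000286 in limma). After vehicle, females read 0.0507 to 0.0678 and males 0.122 to 0.189, a difference of -1.34 ± 0.22 (2.53-fold lower in females; adjusted p = 0.00978). In each treatment every female lay below every male. It was the sole member of the 8 to pass, lower in females, after dexamethasone, where 5.79% of all genes passed (3.25% higher and 2.53% lower), and after vehicle, where 1.97% did (0.657% higher and 1.31% lower). Within slides the difference was -2.31 after dexamethasone on the single slide with both sexes, and -1.26, -1.48 and -1.27 after vehicle on the 3 slides. With normexp females remained lower, by -0.89 and -0.80 log2 units, and neither passed (adjusted p = 0.998 and 1). Male arrays sat at lower slide positions than female arrays on every slide. After vehicle all males were at position 1 and no female was, so sex and position cannot be told apart there. After dexamethasone position 3 held both sexes, with 0.0280 in female 1 and 0.143 in male 3.

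The other 7 serpins did not pass between the sexes. The groups did not overlap for 2 of the 8 serpins after dexamethasone, Serpina3k and Serpina12, against 26.5% of all genes, and for 2 after vehicle, Serpina5 and Serpina12, against 20% of all genes. Serpina3k after vehicle was 2.01-fold lower in females than in males with overlap (n = 3 each; adjusted p = 0.19 in limma), with female vehicle replicate 3 the lowest of the 12 arrays for that gene. Serpina5 after vehicle was -1.76 ± 0.50 (adjusted p = 0.13), a difference bounded at 1.36-fold. It rests on values not well above background in all vehicle females and in vehicle male 1. The dimmer Serpina5 probe gave 0.03 after vehicle with overlap, where no array of either sex was well above background. For Serpina7 the intervals were wide, -3.08 to 2.82 after dexamethasone and -2.92 to 2.98 after vehicle.

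The test of whether the dexamethasone effect differed between the sexes called 0 of the 8 serpins, where 0.00517% of all genes, a single gene, passed in limma. At an unadjusted p under 0.05 there was 1 of the 8 serpins, against 5.35% of all genes. It was Serpina12, with a female effect minus male effect of -0.95 ± 0.30 (SE, n = 3 per group; unadjusted p = 0.0101; adjusted p = 0.745), the product of a fall in females and a value of 0.22 in males. For Serpina3k the female effect exceeded the male effect by 0.73 ± 0.47 and for Serpina3c it was smaller by -0.54 ± 0.42 (adjusted p = 1 for both). The 95% intervals of those 2 differences, -0.30 to 1.77 and -1.47 to 0.40, leave room for effects that are alike and for effects that differ by over 1 log2 unit. For Serpina5 the value of 1.21 ± 0.71 depends on female vehicle signals at background, and the dimmer probe gave -0.42 ± 0.51.

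Since the male and female effects had the same sign for 7 of the 8 serpins, their mean was also tested in the same fit, a comparison added after the values had been seen. It uses the arrays of both single-sex comparisons and is not independent of them. Of the 8 serpins, 3 rose (Serpina3c, Serpina3k and Serpina5) and 2 fell (Serpina10 and Serpinf2), beside 16.6% of all genes that rose and 17.4% that fell, 34.1% in all. Serpina5, kept by the filter only through the dexamethasone groups, is in this count. The mean difference was -0.90 ± 0.28 for Serpina10 (SE; adjusted p = 0.0307 in limma) and -0.51 ± 0.16 for Serpinf2 (adjusted p = 0.0276). Both were close to the threshold: Serpina10 passed in 12 and Serpinf2 in 15 of 21 alternative settings. Serpina3n, at 0.99 ± 0.36 (adjusted p = 0.0554), passed in 7 of 21.

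Among 55 other serpins, 46 were on the array and 31 passed the filter on dim signal. In females 2 rose and 2 fell, 12.9% of the 31 against 13.7% of all genes, and in males 2 rose and 5 fell, 22.6% against 22.5% of all genes. These shares were near those of all genes and the genes below are named as single genes. Serpine2, protease nexin-1, which inhibits thrombin and plasminogen activators, rose by 2.06 ± 0.40 in females (SE; adjusted p = 0.00832 in limma) and 3.55 ± 0.40 in males (adjusted p = 0.000365). Serpina3m, a neighbour of Serpina3k in the same cluster, rose by 0.88 in females (adjusted p = 0.0225) and 0.70 in males (adjusted p = 0.0383). Serpinb8 fell by 1.40 in females (adjusted p = 0.00754) and by 1.86 in males (adjusted p = 0.00112), and Serpinb9, an intracellular inhibitor of granzyme B, fell by 0.80 (adjusted p = 0.0171) and by 0.63 (adjusted p = 0.031). Serpina6, corticosteroid-binding globulin, fell by 1.75 ± 0.45 in males (adjusted p = 0.0188) and had a value of -1.21 ± 0.45 in females (adjusted p = 0.105). In males Serpinb1b was not well above background after dexamethasone, and its fall was bounded at 1.496-fold or more. Its fitted difference in males, which used those values as given, was -1.09 (adjusted p = 0.0481). The collagen chaperone Serpinh1 fell by 0.60 in males (adjusted p = 0.0409). In females the values of Serpinb1b and Serpinh1 were -0.37 and -0.47 and did not pass. Of 8 stellate cell and fibroblast markers 0 fell in females and 3 in males, against 6.88% and 12.1% of all genes. The markers' summed relative signal was 51.9 to 58.9 in dexamethasone females and 46.1 to 53.4 in vehicle females. In males it was 36.5 to 37.8 after dexamethasone and 42.4 to 49.1 after vehicle. The part of these markers in the Serpinh1 values was not tested. The test of a difference in effect between the sexes passed for 0 of the 31. The median over the 31 was -0.15 in females and -0.25 in males.

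Of 23 proteases, cofactors and carriers that act with these serpins, 22 were tested. In females 0 rose and 1 fell, and in males 1 rose and 4 fell. That was 4.55% of the 22 against 13.7% of all genes in females and 22.7% against 22.5% in males, and the medians were 0.00 and -0.02. Prtn3, proteinase 3 of neutrophils, fell by 1.95 ± 0.45 in females (SE; adjusted p = 0.0185 in limma) and by 1.44 ± 0.45 in males (adjusted p = 0.0439). In males Gzmb, granzyme B, fell by 1.55 (adjusted p = 0.00597), Klkb1, plasma prekallikrein, by 0.95 (adjusted p = 0.00839) and F7, coagulation factor VII, by 0.38 (adjusted p = 0.0467), while Alb, which carries thyroxine beside Serpina7, rose by 0.40 (adjusted p = 0.0189). Neutrophil markers passed in neither sex (0 of 6 tested). Of 8 T and NK cell markers 1 rose in females and 3 fell in males, against 6.79% and 12.1% of all genes. The genes for prothrombin, plasminogen and protein C, targets of several of the serpins above, did not pass in either sex.

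**Figure D4:**
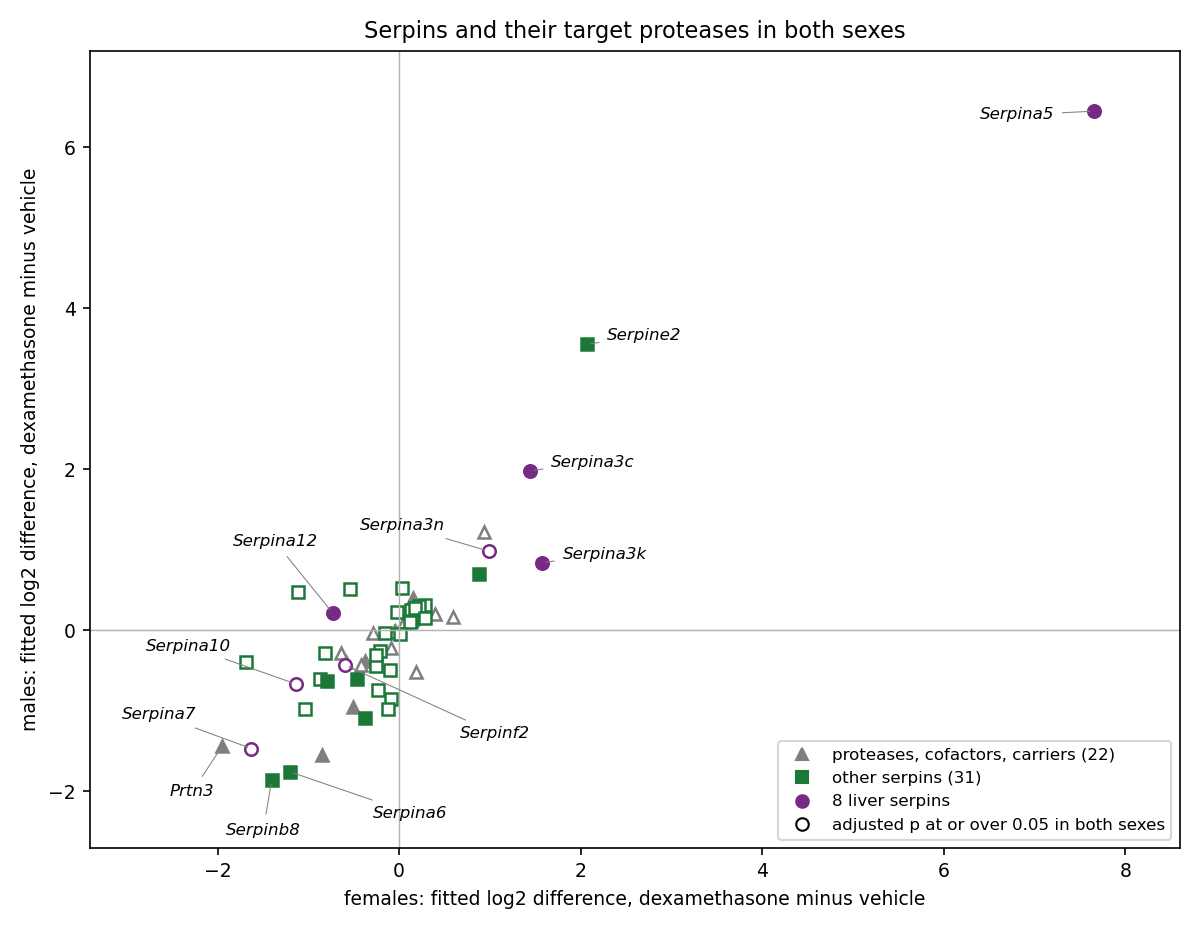
Fitted log2 differences after dexamethasone in females (x axis) and males (y axis) for the 8 liver serpins (circles), 31 other serpins (squares) and 22 proteases, cofactors and carriers (triangles); filled symbols passed in at least 1 sex. Serpina5 and Serpine2 lie furthest to the upper right, and the fitted female value of Serpina5 rests on vehicle signals at background.

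The genes whose profile over the 12 arrays was most like that of each serpin, among 14781 others with a usable symbol, are given as a description; the arrays share the treatment and sex groups, so correlations are high wherever both genes respond. Serpina5 was most like Fmo5 (Pearson r = 0.99), Sik3 (r = 0.99) and Sec14l4 (r = 0.99), Serpina3c was most like Slc10a6 (r = 0.99), Yod1 (r = 0.97) and Eif3a (r = 0.97), and Serpina3k was most like its neighbour Serpina3m (r = 0.97), Nlrp12 (r = 0.96) and Actr1a (r = 0.94). Serpina3n was nearest to Plrg1, Psme3 and Ddx28 (r = 0.94, 0.93 and 0.91). Serpina10 was nearest to Tnfrsf1a (r = 0.97), Tifa (r = 0.96) and Litaf (r = 0.93). Serpina7 was nearest to Cyp2c55 (r = 0.98), Bhlhb9 (r = 0.95) and Slc22a7 (r = 0.95). Serpina12 was nearest to Susd4 (r = 0.97), Ces2b (r = 0.95) and the Y-linked Uty (r = 0.95), and Serpinf2 to Lig1, P3h4 and Isyna1 (r = 0.96, 0.95 and 0.94). Among the 28 pairs of serpins, with each group's mean removed, the highest r over the 12 arrays were 0.84 for Serpina3n and Serpina10 and 0.73 for Serpina7 and Serpinf2, and the lowest was -0.74 for Serpina5 and Serpina10. Dexamethasone male 3 read highest of its group for Serpina3n and Serpina10 and lowest for Serpina5. Both r values with Serpina10 draw largely on that animal. Serpina5 was also not well above background in vehicle females and vehicle male 1.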

How the data were processed

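The deposited scanner files hold intensities that the authors quantified with Agilent Feature Extraction 9.5, per the submitters' processing notes. Per the file headers, each processed signal was detrended within its array and dim spots were given surrogate values, so signals at background are not measured levels; the deposited series values equalled it (100% of spots). Control spots aside, it was divided by its 75th percentile on that array and taken to log2. Outlier spots were left out and a probe's spots averaged. A probe was kept where some group had it well above background on each of its 3 arrays, and the brightest kept probe stood for a gene. A 4-group linear model was fitted to 12 arrays with limma 3.58.1 (R 4.3.3, figures with matplotlib 3.10.9). The code was also run on simulated independent normal values. These had no slides, positions or surrogate values, so that run cannot show how well the model suits these arrays. A group not well above background gives only a bound: the bright mean over the dim mean, each dim array taken at its lowest spot well above background or its own value if higher. A probe not well above background can read above that lowest spot, so every bound rests on this choice. Animals are the replicates, and 3 per group limit precision.

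The members, gene lists and tests were chosen with earlier results of these data known. Named were all members, listed genes past the threshold in a dexamethasone comparison (at most 10 serpins and 6 others) and the 3 genes most correlated with each member. Deviations of same-numbered animals from their group means correlated with r between -0.22 and 0.33. Replicate numbers were not treated as pairs, and a block on them is given below as an alternative.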

Additional observations from a re-analysis of the deposited data

How the results depend on the processing

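Serpina3c and Serpina5 in males and Serpina5 in females kept their direction and passed under every alternative that gave a value; Serpina5 gave none where all 12 arrays had to be well above background. With normexp (offset 50), which moved the median of all genes to 0.26 in males and 0.24 in females, called genes numbered 538 in females, 904 in males, 0 for the difference between the sexes' effects, 59 between the sexes after dexamethasone and 90 after vehicle, against 2644, 4359, 1, 1119 and 381. Members called with normexp were 1 in females and 0 between the sexes under each treatment, and requiring all arrays above background left 1 in males. The normexp value of Serpina12 in females was 0.49. In fits of the compared groups alone 1180 genes were called in females, 490 between the sexes after dexamethasone and 224 after vehicle. With the slide as a block 244 were called between the sexes after dexamethasone, and Serpina12 in females was -0.81 (adjusted p = 0.067). With the replicate block 703 were called between the sexes after dexamethasone and 244 after vehicle, and Serpina12 in females no longer passed (-0.73; adjusted p = 0.0828); no other member's call in a single-sex or sex comparison changed. Without a filter on dim probes 2278 genes were called for the difference between the sexes' effects and 4233 between the sexes after dexamethasone; that difference gave 0 with all arrays above background and 0 when the probes of a gene were averaged.

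Leaving out each array in turn gave 1504 to 2567 called genes in females, 2342 to 5026 in males, 1 to 32 for the difference between the sexes' effects, 455 to 1281 between the sexes after dexamethasone and 156 to 436 after vehicle. Counts moved by over 1.5 times in females without vehicle replicate 1 (1504) or 3 (1742) or dexamethasone replicate 2 (1703), in males without vehicle replicate 1 (2342), for the difference without female dexamethasone replicate 3 (32), male dexamethasone replicate 3 (5) or male vehicle replicate 1 (3), and between the sexes without any dexamethasone animal but female 3 (455 to 737) or without male vehicle replicate 2 (156) or 3 (176). Members called were 3 to 5 in females, 2 to 3 in males, 0 for the difference, 1 under each treatment between the sexes, and 3 to 6 for the mean of both sexes, whose lowest count came without male vehicle replicate 1 or 2 or female dexamethasone replicate 1.

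Directions turned mainly where the value was near 0 or the spread wide. For the difference between the sexes' effects, Serpina3n was -0.039 with normexp and -0.038 with median scaling and between -0.36 and 0.62 on leaving out arrays, Serpina5 was -0.062 with normexp, Serpina7 lay between -1.61 and 0.91, and Serpina10 lay between -0.84 and 0.11. Between the sexes after dexamethasone, Serpina3k was 0.0018 with quantile normalization, Serpinf2 was 0.035 with normexp, 0.10 with quantile normalization and between -0.23 and 0.12 on leaving out arrays, Serpina7 lay between -1.58 and 0.94 and Serpina10 between -0.76 and 0.20. After vehicle, Serpina3c lay between -0.057 and 0.37, Serpina7 between -0.63 and 1.34 and Serpina10 between -0.075 and 0.27. Serpina12 over both sexes turned to 0.54 with normexp (adjusted p = 0.279). The causes were not tested. With 3 animals a group and dim signals for Serpina5 and Serpina12, small differences were not detectable.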
